A study of Mus musculus with 2 samples.

Results

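The genes examined were 7 membrane proteins of skeletal muscle, the ion channel genes Scn4a, Clcn1, Kcnj2 and Kcnj11, the channel regulator gene Abcc9 and the aquaporin genes Aqp1 and Aqp4. Every probe set that the platform annotation names for one of these genes alone was taken. This gave 11 probe sets for 6 of the 7 genes, of 45101 probe sets on the array. No probe set is named for Scn4a, so no level of it was analysed here. Skeletal muscle RNA came from female C57BL6 mice at 4 months of age, either RXRγ mice (line 4-3), which carry an RXRγ transgene under the human α-actin promoter, or non-transgenic control mice. The RNA of each genotype was pooled and hybridized to 1 Affymetrix MG430 array. The pool is given as 5 animals in the design text and as 3 in the sample labels, and the muscle taken is not named in the sources used here. Since each genotype has a single array, no value carries an error and the genotypes could not be tested against each other; how precise a difference is depends on that number of arrays.

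Ion channels of the sarcolemma, the surface membrane of the muscle fibre, set its excitability, and aquaporins let water cross it. Scn4a encodes the voltage-gated sodium channel that carries the action potential along the sarcolemma. Clcn1 encodes ClC-1, the chloride channel that stabilises the resting membrane, and loss of it causes myotonia, a delayed relaxation after contraction. Kcnj2 encodes the inward rectifier Kir2.1, which holds the resting potential near that of potassium. Kcnj11 encodes the pore subunit Kir6.2 and Abcc9 the sulfonylurea receptor SUR2, and together they form the ATP-sensitive potassium channel that opens when cellular ATP falls. Aqp4 is the water channel of the sarcolemma, found mainly in fast-twitch fibres, where the dystrophin complex holds it. Aqp1 is a water channel of capillary endothelium and red blood cells.

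The transcription factor RXRγ binds DNA as a heterodimer with other nuclear receptors, at repeats of the hexamer AGGTCA, and MEF2 is a factor of muscle genes. The RefSeq promoters (GRCm38.p6, 250 bases before to 50 after the start of the gene) of 3 members with a signal above 150 are shown because they contrast Clcn1, which had a lower signal in RXRγ muscle, with Abcc9 and Aqp1, which differed little. Capitals mark matches, on either strand, to the MEF2 consensus or to TATAAA; in Clcn1 the TATAAA match lies inside the MEF2 match. The Clcn1 promoter is chr6:42286435-42286734 on the + strand, that of Abcc9 is chr6:142702225-142702524 on the - strand, and that of Aqp1 is chr6:55336049-55336348 on the + strand.
Clcn1: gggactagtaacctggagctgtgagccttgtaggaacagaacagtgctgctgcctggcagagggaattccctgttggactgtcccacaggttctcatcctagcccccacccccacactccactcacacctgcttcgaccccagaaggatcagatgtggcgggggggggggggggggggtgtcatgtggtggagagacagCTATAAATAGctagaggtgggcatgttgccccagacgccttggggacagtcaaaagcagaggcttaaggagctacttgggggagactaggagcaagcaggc
Abcc9: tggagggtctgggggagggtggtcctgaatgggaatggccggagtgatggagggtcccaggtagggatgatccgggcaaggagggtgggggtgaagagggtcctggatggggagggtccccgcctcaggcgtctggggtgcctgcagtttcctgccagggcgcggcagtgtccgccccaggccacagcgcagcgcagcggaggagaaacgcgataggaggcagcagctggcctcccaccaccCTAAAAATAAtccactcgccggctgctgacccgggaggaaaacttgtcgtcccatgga
Aqp1: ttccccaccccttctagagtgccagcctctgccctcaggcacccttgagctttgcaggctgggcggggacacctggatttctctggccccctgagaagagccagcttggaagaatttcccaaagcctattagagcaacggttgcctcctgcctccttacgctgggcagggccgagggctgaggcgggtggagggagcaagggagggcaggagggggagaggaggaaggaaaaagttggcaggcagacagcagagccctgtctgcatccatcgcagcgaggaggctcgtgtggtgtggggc
The MEF2 match of Clcn1, CTATAAATAG, began 51 bases before the start of the gene, and that of Abcc9, CTAAAAATAA, began 8 bases before it and ran across it. Among 32851 RefSeq promoters of the same length, 3.19% held a match to the MEF2 consensus and 13.6% held TATAAA. The promoters of Aqp4 and Kcnj11 were not searched. The hexamer AGGTCA was searched on both strands and occurred in none of the 5 members' promoters searched (Scn4a, Clcn1, Kcnj2, Abcc9 and Aqp1), against 16.3% of all promoters. Direct repeats of this hexamer with a spacer of 1 base, the form bound by RXR with PPAR, or of 4 bases, the form bound with LXR, were in none of the 5 either, and in 0.0396% (spacer of 1) and 0.0152% (spacer of 4) of all promoters. A match or its absence describes the letters of this window alone.

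The deposited signals are linear, and both arrays had the same trimmed mean (100.0). Each gene was given the log2 ratio of RXRγ over control muscle, averaged across those of its probe sets that exceeded 250 on at least one array, the level the study's methods used for differential expression. Signals under 150, the study's level for expression, were not used for a fold, and the bound printed in such cases divides the brighter signal by 150. The threshold for a call in either direction was 0.4 on the log2 scale. Of 3780 genes so tested, 16.8% passed it as higher and 20.1% as lower, and the median over all of them was -0.04. Higher genes were 45.6% of those called, and 33.9% under median scaling. The transgene was visible, since Rxrg had a signal of 9172 in RXRγ muscle against 334.5 in control muscle. The tissue carried the markers of muscle fibres: all 10 listed fibre genes were above 250, and skeletal actin (Acta1) had a signal of 10440 in RXRγ muscle and 10999 in control muscle. Of 14 measured markers of fibroblasts, Schwann cells, adipocytes and macrophages, lumican (Lum), a matrix proteoglycan, was higher in RXRγ muscle (1771 against 699.1 in control muscle) and none was lower. The fibroblast collagen gene Col1a1 was called lower (log2 ratio -0.54) when a signal of 150 sufficed or with no filter. With no filter decorin (Dcn) was called lower (-0.57) and Pdgfra higher (0.52), through probe sets under 150 on both arrays. The bright probe set of Dcn had 4575 in RXRγ muscle and 4126 in control muscle (log2 ratio 0.15). That of Pdgfra had a log2 ratio of 0.24.

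Of the 7 genes, 4 were tested, 1 was lower in RXRγ muscle and none was higher. The lower gene was Aqp4, while Kcnj11, Abcc9 and Aqp1 lay close to the control signal. Clcn1 and Kcnj2 did not reach the signal of 250. Aqp4 passed this level through the control array alone, so the count of 1 in 4 beside a background of 20.1% does not set these genes apart from the rest.

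**Figure D1:**
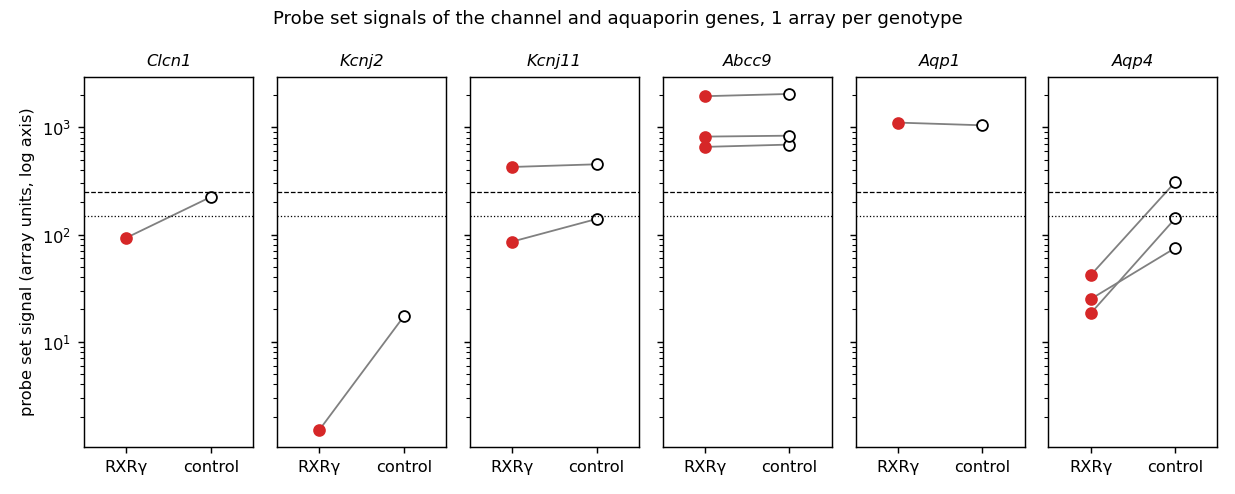
Signal of each of the 11 probe sets in RXRγ muscle (filled red circles, left) and control muscle (open circles, right), on a logarithmic axis (array units), with a line joining the 2 signals of a probe set. The dashed line marks a signal of 250 and the dotted line 150; the 3 probe sets of Aqp4 lie at 18.4 to 41.8 in RXRγ muscle and at 74.9 to 308.3 in control muscle, while those of Abcc9 are nearly level.

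Aqp4 had a signal of 41.8 in RXRγ muscle against 308.3 in control muscle at the probe set 1434449_at. The signal in RXRγ muscle was under 150, so Aqp4 was at least 2.06-fold lower in RXRγ muscle. Its other probe sets were under 150 on both arrays and give no fold. The probe set 1425382_a_at had a signal of 18.4 in RXRγ muscle and 141.2 in control muscle. The probe set 1447745_at had 25.0 in RXRγ muscle and 74.9 in control muscle. All 3 probe sets of Aqp4 thus had the lower signal on the array of RXRγ muscle, and none of them reached 150 there.

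Markers of slow fibres were also lower on the same array. All 7 listed slow fibre genes were above 250 and lower in RXRγ muscle, beside 20.1% of all genes tested, and the summed signal of their probe sets was 3592 in RXRγ muscle and 15038 in control muscle. Of the 7, Myl3, Tnnt1 and Tnni1 passed 250 through the control array alone, and with 250 required on both arrays the other 4 were lower, beside 16.4% of all genes. Myl3, a slow myosin light chain, had a mean signal of 23.2 in RXRγ muscle and 1747 in control muscle. The slow myosin heavy chain gene Myh7 had a signal of 303.2 in RXRγ muscle against 1754 in control muscle. Of these genes Atp2a2, the slow calcium pump, lost its call without a signal filter (log2 ratio -0.14), where probe sets under 150 on both arrays were included. Its 3 probe sets above 250 ran from -0.97 to -0.35. No probe set of a slow fibre gene was at 0. Of the 10 genes listed for fibres in general, most of them fast isoforms or common to all fibres, 3 were lower (Ckm, Myh4 and Myh2) and none was higher. Of all genes tested 20.1% were lower and 16.8% higher. The median log2 ratio of the 10 was -0.25. With the brightest probe set of each gene, 1 was lower (Myh2), since Ckm was at -0.11 and Myh4 at -0.06. Myh4 also lost its call under quantile (-0.35) and loess (-0.33) scaling. Tnni2 gained a call as lower under median scaling (-0.43), and at a level of 150 or with no filter (-0.51). The part of fibre type in the lower Aqp4 signal was not tested. In RNA from whole muscle, fewer cells of a type and less RNA per cell cannot be told apart.

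Aqp1 had a signal of 1106 in RXRγ muscle and 1044 in control muscle at its only probe set, 1416203_at. Its log2 ratio was 0.08, within the threshold of 0.4, and 15.2% of the genes tested lay as close to 0 or closer. Under median scaling of the arrays the ratio was -0.01, so it has no settled direction. Of 12 endothelial genes listed, 1 was above 250: the surface protein gene Cd34 had a signal of 388.6 in RXRγ muscle and 330.6 in control muscle. Among the dimmer ones, Pecam1 (138.9 in RXRγ muscle, 206.8 in control muscle), Tek (180.6 and 221.8) and Emcn (152.6 and 171.2) had the lower signal in RXRγ muscle. Esam had the higher one (180.3 and 165.3), and the probe sets of Egfl7 went both ways. Cdh5, Cldn5, Flt1, Kdr, Tie1 and Vwf, under 150 on both arrays, had the lower signal in RXRγ muscle at every probe set. The summed signal over the probe sets of the 12 endothelial genes was 2499 in RXRγ muscle and 2651 in control muscle. Of 7 red cell genes listed, 3 had a probe set named for them alone, and none reached 150 (Alas2, of haem synthesis, had 27.3 in RXRγ muscle and 42.7 in control muscle). The globin gene Hba-a1 had 0.9 in RXRγ muscle and 1.7 in control muscle, and 4 of the 7 had no such probe set. The part of red cells in the Aqp1 signal was not tested. The remaining 10 aquaporin genes were all under 150, and the brightest of them was the aquaglyceroporin gene Aqp7, with 58.5 in RXRγ muscle and 49.3 in control muscle. Of the aquaporins, then, 2 were measured in this muscle, Aqp4 with a lower signal in RXRγ muscle and Aqp1 within the threshold.

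Abcc9 had 3 probe sets above 250 whose ratios lay close together. The probe set 1435752_s_at had a signal of 1950 in RXRγ muscle and 2046 in control muscle. The probe set 1435751_at, which has the adjacent number and may come from the same transcript sequence, had 818.6 in RXRγ muscle and 835.1 in control muscle. The probe set 1420408_a_at had 656.5 in RXRγ muscle and 689.7 in control muscle. The log2 ratios ran from -0.07 to -0.03, a span of 0.04, while the median span of the 1213 genes with several such probe sets was 0.20. The mean was -0.06, and 10.3% of the genes tested lay as close to 0 or closer.

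Kcnj11, the pore of the same channel, had a signal of 426.5 in RXRγ muscle and 451.8 in control muscle at the probe set 1455417_at, a log2 ratio of -0.08. Its second probe set, 1450515_at, was under 150 on both arrays, with 85.8 in RXRγ muscle and 139.6 in control muscle. Neither subunit of the ATP-sensitive potassium channel passed the threshold. The paralogous subunits were dim. Abcc8 encodes SUR1, which pairs with Kir6.2 in pancreatic β cells, and is the neighbour of Kcnj11 in the RefSeq annotation. Its brightest probe set had 38.4 in RXRγ muscle and 35.2 in control muscle. Kcnj8, which encodes the vascular Kir6.1 and is the neighbour of Abcc9, had 82.2 in RXRγ muscle and 117.2 in control muscle. Abcc9 is also expressed in pericytes and smooth muscle. Of 8 genes listed for these cells, 3 were above 250 and none was higher or lower, beside 16.8% and 20.1% of all genes tested. Among them Rgs5, a regulator of G protein signalling, had a log2 ratio of -0.36 (-0.46 and called lower under median scaling). With no filter Pdgfrb was called lower (-0.42) and Acta2 higher (0.85), through probe sets under 150 on both arrays.

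**Figure D2:**
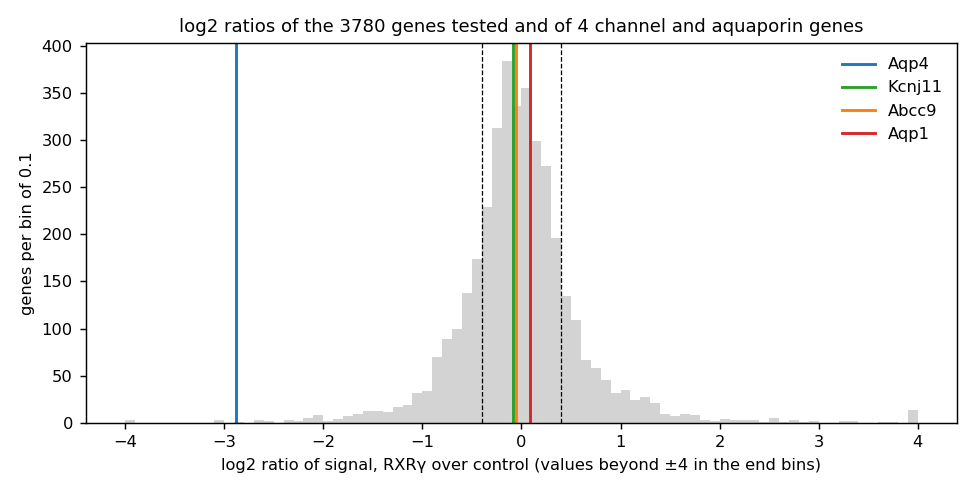
Number of genes per bin of 0.1 of the log2 ratio of RXRγ over control muscle (grey, 3780 genes, with values beyond 4 in either direction in the end bins), with vertical lines at Aqp4, Kcnj11, Abcc9 and Aqp1 and dashed lines at 0.4 in either direction. Kcnj11 (-0.08), Abcc9 (-0.06) and Aqp1 (0.08) lie in the middle of the distribution; the line of Aqp4 stands at the ratio of its signals as deposited, of which the one in RXRγ muscle (41.8) is too low for a fold.

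Clcn1 had a signal of 93.2 in RXRγ muscle against 224.1 in control muscle at its only probe set, 1427591_at. It reached 150 in control muscle alone and was there under 250, so it is not among the genes tested, and the bound is at least 1.49-fold lower in RXRγ muscle. With a level of 150 on the brighter array in place of 250, Clcn1 was called lower, as were 19.2% of the 5359 genes tested in that way (18.3% were higher). Its neighbour Fam131b, which overlaps it in the RefSeq annotation, had 14.4 in RXRγ muscle and 2.3 in control muscle at its brightest probe set. The other chloride channel genes above 250 are those of intracellular membranes. Clcn3, an endosomal chloride and proton exchanger, had a mean signal of 329.5 in RXRγ muscle and 365.7 in control muscle. Clcn4, an exchanger of the same kind, and Ostm1, the partner of ClC-7, had log2 ratios of -0.12 and 0.15. None of these 3, of 12 chloride channel genes listed, passed the threshold.

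Splicing of Clcn1 is known to depend on the muscleblind and CELF proteins, whose disturbance causes the myotonia of myotonic dystrophy. Of 5 such genes listed, 4 were above 250, 1 was lower and none was higher, beside 20.1% lower and 16.8% higher of all genes tested. This count does not set them apart from the rest. The lower gene was Celf2, with a mean signal of 426.5 in RXRγ muscle and 637.3 in control muscle (log2 ratio -0.56 over 3 probe sets, from -0.64 to -0.46). Mbnl1 had a signal of 3431 in RXRγ muscle and 4264 in control muscle, a log2 ratio of -0.31, which became -0.41 and a call as lower under median scaling. Mbnl2 had a log2 ratio of -0.16. Celf1 had a log2 ratio of 0.34 and was not called, although its probe sets ran from 0.13 to 0.53. No splice form of Clcn1 can be read from its single probe set.

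Kcnj2 had a signal of 1.5 in RXRγ muscle and 17.2 in control muscle at its only probe set, 1450503_at. Both signals were far under 150, so no fold is given. The related inward rectifier gene Kcnj12, which encodes Kir2.2, was also under 150, with 60.5 in RXRγ muscle and 103.2 in control muscle. Of the 15 inward rectifier genes listed, Kcnj11 alone reached 150. Low signals at these probe sets do not show that the channels are absent.

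The sodium channel subunits could be followed through Scn4b alone. It encodes the β4 subunit, a partner of the pore-forming α subunits, and had a signal of 670.6 in RXRγ muscle against 1410 in control muscle. This is 2.10-fold lower in RXRγ muscle, a log2 ratio of -1.07, at 1 probe set. Of 15 sodium channel symbols listed, 11 had a probe set named for them alone, and the other 10 of these were under 150. The brightest of those, Scn7a, had 97.2 in RXRγ muscle and 92.4 in control muscle.

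Most of the other potassium channel genes listed, accessory subunits included, were dim. Of 49 voltage-gated, calcium-activated and two-pore genes listed, 4 were above 250, 3 were lower and none was higher. Over all genes tested, 20.1% were lower and 16.8% higher. Kcnc1 and Kcnc4 passed 250 through control muscle alone. With 250 required on both arrays 2 genes remained and 1, Kcna7, was lower, beside 16.4% of all genes. Among the dimmer genes, Kcne1l had 161.7 in RXRγ muscle and 3.2 in control muscle, at least 1.08-fold higher. Kcnq5 had 92.3 in RXRγ muscle and 170.9 in control muscle, at least 1.14-fold lower. Kcna7, a Kv1 family channel of skeletal and cardiac muscle, had a signal of 547.8 in RXRγ muscle and 1062 in control muscle (log2 ratio -0.96). Kcnc4, which encodes Kv3.4, had 194.1 in RXRγ muscle and 334.9 in control muscle (log2 ratio -0.79). Kcnc1, which encodes Kv3.1, had 194.5 in RXRγ muscle and 297.3 in control muscle (log2 ratio -0.61). Kcnma1, the calcium-activated BK channel, had 295.4 in RXRγ muscle and 280.0 in control muscle (log2 ratio 0.08).

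Over all 118 symbols of channels and aquaporins listed, 12 genes were above 250 on the brighter array, of which 5 were lower (41.7%, beside 20.1% of all genes tested), 7 were neither and none was higher. Their median log2 ratio was -0.14. Aqp4, Kcnc1 and Kcnc4 passed this level through the control array alone. When both arrays had to exceed 250, 9 genes remained, of which 2, Scn4b and Kcna7, were lower (22.2%, beside 16.4% of the 3055 genes tested in that way, of which 12.1% were higher).

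**Figure D3:**
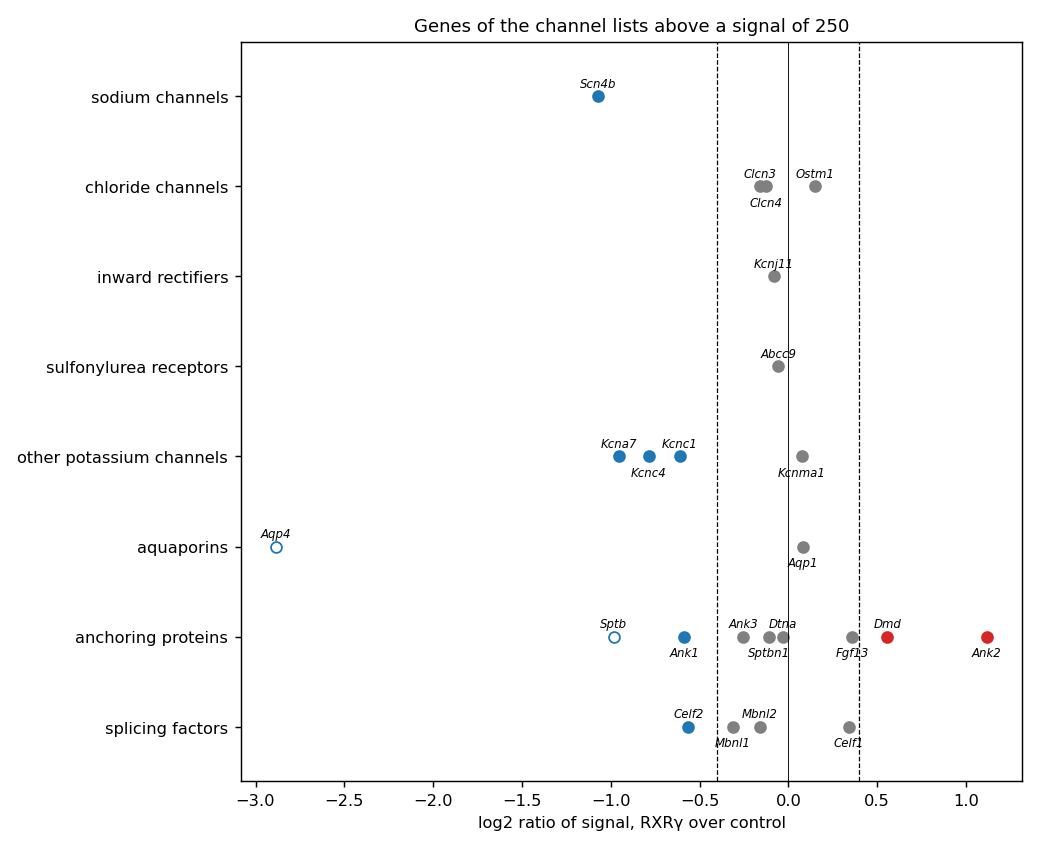
log2 ratio of RXRγ over control muscle for each gene of 8 lists that exceeded 250 on the brighter array, 1 point per gene. Blue points are lower, red points higher and grey points within 0.4 in either direction (dashed lines); open points (Aqp4 and Sptb) have a signal under 150 in RXRγ muscle, so that their position is no measure of the fold. Scn4b (-1.07), Kcna7 (-0.96), Kcnc4 (-0.79) and Kcnc1 (-0.61) lie left of the dashed lines, and Kcnj11, Abcc9 and Aqp1 between them.

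Proteins that hold channels in the membrane went both ways. Of 11 genes listed, 8 were above 250, 2 were higher, 2 were lower and 4 were neither, with a median log2 ratio of -0.07, beside 16.8% higher and 20.1% lower of all genes tested. Ank2 passed 250 through RXRγ muscle alone and Sptb through control muscle alone. Dystrophin (Dmd), the core of the complex to which Aqp4 is tethered, had a mean signal of 883.8 in RXRγ muscle against 591.1 in control muscle (log2 ratio 0.56 over 2 probe sets, 0.38 and 0.74). With probe sets above 150 included, its log2 ratio was 0.25 and it was not called. Dystrobrevin (Dtna), of the same complex, was near 0 (log2 ratio -0.03), its probe sets lying at -0.37 and 0.31. The ankyrin gene Ank2 was higher, at 455.2 in RXRγ muscle against 208.6 in control muscle (log2 ratio 1.12 over 2 probe sets, 1.04 and 1.20). It was not called with no filter, where some probe sets under 150 on both arrays had the lower signal in RXRγ muscle. Ank1 was lower (1101 in RXRγ muscle and 1674 in control muscle, log2 ratio -0.59), as was the spectrin gene Sptb, with 148.8 in RXRγ muscle and 294.2 in control muscle, at least 1.96-fold. Ank3, the ankyrin that gathers sodium channels, had a log2 ratio of -0.26 and was not called. Sptbn1, a further spectrin, had 1372 in RXRγ muscle and 1479 in control muscle.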

How the data were processed

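Skeletal muscle RNA of RXRγ and control mice was measured on 1 Affymetrix MG430 array per genotype. The deposited values are linear signal intensities per probe set, which the authors made with Affymetrix Gene Chip software from perfectly matched and mismatched oligonucleotides. Both arrays had a mean of 100.0 once the 2% of probe sets lowest and highest in signal were left out; how they were scaled is not given in the sources that were used. Detection calls were not used here. The platform annotation names 1 gene for 34958 of 45101 probe sets, several for 932 and none for 9211. Ratios (log2, RXRγ over control) were taken from the signals of probe sets of 1 gene, with no pseudocount. With 1 array per genotype no p-value was computed. The calling step was run on simulated data with planted changes well past the threshold. This checks the code and does not measure the error of a call in these data. Genes named are all 7 members and, of each list, up to 4 measured genes with the largest change and the brightest; list genes named beside these, such as Acta1, Atp2a2, Dtna and Ank3, were chosen after their values were seen. The members and lists were chosen with earlier results of these data known. No gene was named for a like pattern, since 2 arrays give 1 difference per gene. Alternatives changed 1 choice at a time: scaling (median, quantile, or loess in limma 3.58.1 with R 4.3.3), adding 32 to each signal as a pseudocount, raising signals under 150 to 150, the signal filter, the probe sets of a gene and a threshold of 1. Python 3.11.15, pandas 2.3.3, numpy 2.4.6 and matplotlib 3.10.9 were used.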

Additional observations from a re-analysis of the deposited data

How the results depend on the processing

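No member was higher in RXRγ muscle under any of the 12 alternatives. The number of members lower was 1 of 4 tested as reported (Aqp4), beside 20.1% of all genes. When 150 sufficed on the brighter array it was 2 of 5 (Aqp4 and Clcn1), beside 19.2%. With no filter it was 3 of 6 (Aqp4, Clcn1 and Kcnj2, the last at signals of 1.5 and 17.2), beside 4114 of 18194 genes. It was 0 of 2 when 500 was required on the brighter array, beside 438 of 2067 genes. With 250 on both arrays it was 0 of 3, beside 16.4%. Under these last settings Aqp4 is not tested. The log2 ratio of Aqp4 from the deposited signals, -2.88, was -2.21 with a pseudocount of 32 and -1.04 with a floor of 150, and it stayed past the threshold in both. That of Clcn1, -1.27 and not called, was -0.58 with a floor of 150, and at -1.27 it was called lower at the level of 150 or with no filter. Kcnj11 ran from -0.39 (no filter) to -0.05, Abcc9 from -0.15 to -0.01 and Aqp1 from -0.01 to 0.13, none past the threshold. No ratio is reported for Scn4a, which no probe set was named for, or for Kcnj2, whose signals were under 150. Of the other channel genes named, Scn4b was called lower also at a threshold of 1, and Kcna7, Kcnc4 and Kcnc1 were not. Over all genes, 636 were higher and 760 lower, against 982 and 1028 above 150 on the brighter array, 340 and 438 above 500, 371 and 501 above 250 on both arrays, 5208 and 4114 with no filter and 191 and 155 at a threshold of 1. Of the genes called, 45.6% were higher, against 33.9% under median scaling and 55.9% with no filter. No paired analysis was possible because each genotype has 1 array. No replicate could be left out, and having a single array each limits what any value can show.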
